A study of Caenorhabditis elegans with 8 samples.

Results

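The genes nlp-27, nlp-28, nlp-29, nlp-30, nlp-31, nlp-33, nlp-34 and cnc-2 encode small secreted peptides of the antimicrobial type that Caenorhabditis elegans makes in its epidermis. They were taken by name, after locus tags had been matched to symbols, and make up 8 of the 46928 gene rows of the count tables. RNA was sequenced from cells sorted from L4 animals of 2 genotypes, and both genotypes carried a daf-7p::gfp reporter for the ASI sensory neurons. The skn-1gf group had 4 libraries from animals with the gain-of-function allele lax188 of skn-1, a transcription factor gene of the detoxification response. The wild-type (N2) group also had 4 libraries, and the labels call the libraries of each genotype biological replicates without saying whether they came from separate cultures, so p-values measure the spread between these libraries. The labels give the cell type as neuron and the sort as one of fluorescent ASI cells, while the extraction text speaks of homogenised animals. The design text names the comparison of the genotypes.

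As background, the nlp-29 group and the caenacin (cnc) genes are part of the defence of the worm skin. Infection of the cuticle by the fungus Drechmeria coniospora, wounding of the epidermis and, for some of the genes, osmotic stress raise their transcripts. In the epidermis the nlp-29 response runs through the receptor DCAR-1, the G-protein subunit GPA-12, protein kinase C TPA-1, the adaptor TIR-1 and the p38 kinase cascade NSY-1, SEK-1 and PMK-1, and ends at the transporter-like protein SNF-12 and the STAT-like factor STA-2. For cnc-2 the known input is DBL-1, a TGF-beta ligand released by neurons that acts on epidermal receptors. Despite the name neuropeptide-like protein, these nlp genes are therefore not markers of neurons.

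In the annotation all 8 genes lay on chromosome V and had 2 exons and coding sequences of 177 to 225 bases. The genes nlp-34, nlp-31, nlp-30, nlp-29, nlp-28 and nlp-27 stood in this order as successive protein-coding genes, with nlp-34 on the minus strand and the other 5 on the plus strand. Elsewhere on the chromosome were nlp-33 and cnc-2, and cnc-2 adjoined its relative cnc-3. No other gene of this annotation overlapped any of the 8. The annotation release and strand setting of the counting are not stated, so whether reads were shared or lost there is not settled. The peptides resemble one another, and reads that aligned to more than one place were not assigned to a gene, so values of close relatives within the group are uncertain to that extent.

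Total gene counts per library were 2976889 to 9680840 in skn-1gf and 5475892 to 10740970 in wild type. Wild-type replicate 2 stood apart on the first principal component and had the highest share of ribosomal RNA counts (32.8%, against 6.90 to 21.8% in the other libraries). In skn-1gf replicate 2 the marker means of epidermis, pan-neuronal genes, intestine, muscle and pharynx were the lowest of all 8 libraries, and that of the germline was the highest. Values that these libraries move most are also given without them. The skn-1gf libraries had 76.9 ± 52.5 CPM (gene counts scaled by TMM-adjusted library size) of gst-4, a glutathione S-transferase gene activated by SKN-1. Wild type had 10.5 ± 2.96 CPM of it (SD, n = 4 each), with no overlap. Such a gap, with skn-1gf above, was found in 129 of the 12734 genes tested. The test over all genes did not call gst-4 (log2 fold change 2.87, SE 0.50, adjusted p = 0.999989 in edgeR). The level of skn-1 itself was 307 ± 68.6 CPM in skn-1gf and 295 ± 108 CPM in wild type, which does not check the labels because the allele need not alter its own RNA.

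All 8 peptide genes had a lower mean in skn-1gf than in wild type, and 0 of 8 passed the test over all genes. The fold changes, skn-1gf over wild type on the log2 scale, ran from −2.26 to −1.11 with a median of −1.33, where the median over all 12734 genes tested was 0.04. A negative value was found in 46.3% of all genes tested. The peptide genes vary together across libraries, so 8 of 8 is not a count of independent results. Every peptide gene passed the low-count filter, but cnc-2 passed through 3 wild-type libraries and 1 skn-1gf library. Without cnc-2 the median of the other 7 was −1.29.

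The list mean of the epidermis markers was also lower in skn-1gf with all 8 libraries. The difference of −0.54 log2 units was −0.13 without skn-1gf replicate 2, and its sign turned with both libraries numbered 2 left out (0.12). In bulk RNA fewer epidermal cells and less peptide RNA per cell cannot be told apart. Of the 20 markers, 19 passed the filter, 14 with a negative and 5 with a positive log2 fold change, 0 were called, and their median was −0.28. Their summed level ran from 334 to 1444 CPM in skn-1gf and from 819 to 1992 CPM in wild type. The part of epidermal RNA in the peptide result was not tested beyond the covariate fit described further on.

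The most abundant peptide gene was nlp-27 (CELE_B0213.2), which stands at one end of the row of neighbouring genes. It had 94.3, 6.62, 44.4 and 56.9 CPM in skn-1gf replicates 1 to 4, against 159.6, 76.0, 84.3 and 118.95 CPM in wild-type replicates 1 to 4. Skn-1gf replicate 2 was far below all other libraries, and skn-1gf replicate 1 lay within the wild-type range, so the groups overlapped. The log2 fold change was −1.12 (SE 0.58, 95% interval −2.37 to 0.13), and it was −0.76 without skn-1gf replicate 2.

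Its neighbour nlp-28 (CELE_B0213.3) had 13.96, 2.97, 7.29 and 11.6 CPM in skn-1gf replicates 1 to 4, against 30.1, 8.85, 20.6 and 33.8 CPM in wild-type replicates 1 to 4. The overlap came from wild-type replicate 2, the 1 wild-type library that lay inside the skn-1gf range. Its log2 fold change was −1.38 (SE 0.64, interval −2.77 to 0.0043), and it was −1.102 without skn-1gf replicate 2.

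The best studied of the group is nlp-29 (CELE_B0213.4), whose promoter is the usual reporter of epidermal infection and wounding and whose peptide acts on the neuronal receptor NPR-12. In skn-1gf replicates 1 to 4 it had 30.998, 7.43, 42.9 and 41.2 CPM, against 96.3, 32.6, 80.5 and 54.3 CPM in wild-type replicates 1 to 4. Again wild-type replicate 2 alone lay inside the skn-1gf range. The log2 fold change was −1.11 (SE 0.52, interval −2.24 to 0.01), and it was −0.80 without skn-1gf replicate 2.

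**Figure D1:**
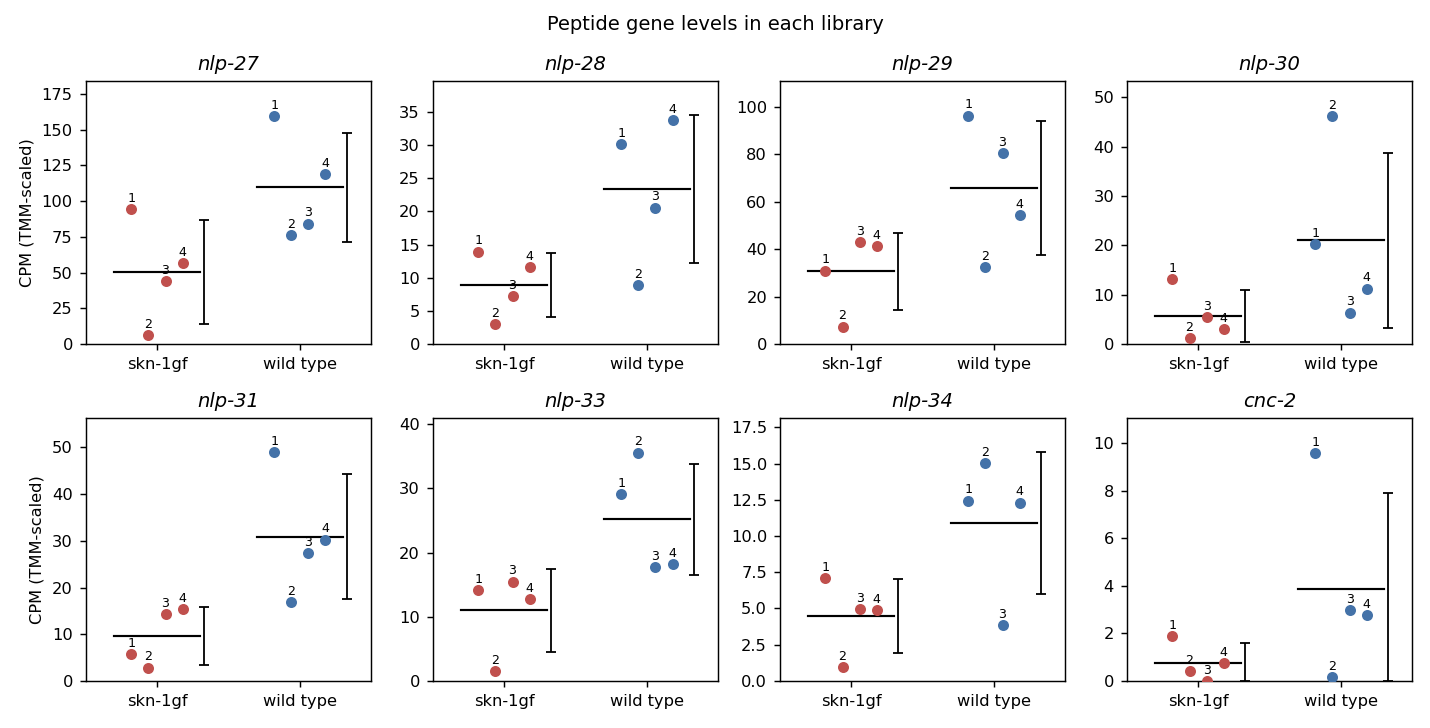
TMM-scaled CPM (y axis, linear from 0, a separate scale in each panel) of the 8 peptide genes in skn-1gf and wild-type libraries; each point is a library with its replicate number, the bar is the mean and the error bar 1 SD (n = 4 each, lower end cut at 0). The groups do not overlap for nlp-31 and nlp-33, and skn-1gf replicate 2 is the lowest skn-1gf library for all genes but cnc-2.

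The peptide of nlp-31 (CELE_B0213.6) has antifungal activity in vitro, and its gene was 1 of the 2 members whose groups did not overlap. It had 5.68, 2.84, 14.3 and 15.3 CPM in skn-1gf replicates 1 to 4, against 48.9, 16.9, 27.4 and 30.3 CPM in wild-type replicates 1 to 4. Every skn-1gf library was below every wild-type library, by a narrow gap between skn-1gf replicate 4 and wild-type replicate 2. The mean was 9.54 ± 6.22 CPM in skn-1gf and 30.9 ± 13.3 CPM in wild type (SD, n = 4 each), or 3.28-fold lower in the fit (log2 fold change −1.71, SE 0.62, interval −3.06 to −0.37). With single libraries left out, other scalings or other tools the log2 fold change lay between −2.26 and −1.40.

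The other member without overlap was nlp-33 (CELE_T19C4.7), which lies away from the row of neighbours. It had 14.2, 1.49, 15.5 and 12.7 CPM in skn-1gf replicates 1 to 4, against 29.04, 35.6, 17.7 and 18.2 CPM in wild-type replicates 1 to 4. The gap was between skn-1gf replicate 3 and wild-type replicate 3. Its log2 fold change was −1.20 (SE 0.66, interval −2.64 to 0.24), and it was −0.62 with both libraries numbered 2 left out.

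Between nlp-31 and nlp-29 stands nlp-30 (CELE_B0213.5), which had the log2 fold change farthest from 0 among the nlp genes of the group. On the log2 CPM scale it also had their widest wild-type spread (SD 1.198, against 0.49 to 0.87 for the others). It had 13.3, 1.22, 5.54 and 2.99 CPM in skn-1gf replicates 1 to 4, against 20.3, 46.2, 6.39 and 11.3 CPM in wild-type replicates 1 to 4. Wild-type replicate 2 alone was above 40 CPM, and skn-1gf replicate 1 exceeded 2 of the wild-type libraries. Its log2 fold change of −1.85 (SE 0.84, interval −3.68 to −0.03) was −1.51 without skn-1gf replicate 2 and −1.16 without wild-type replicate 2, and dropping both libraries numbered 2 brought it to −0.78.

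At the other end of the row, nlp-34 (CELE_B0213.17) had 7.10, 0.946, 4.96 and 4.87 CPM in skn-1gf replicates 1 to 4, against 12.4, 15.02, 3.83 and 12.3 CPM in wild-type replicates 1 to 4. Here it was wild-type replicate 3 that lay inside the skn-1gf range. The log2 fold change was −1.29 (SE 0.80, interval −3.02 to 0.45), and it was −0.76 with both libraries numbered 2 left out.

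The caenacin gene cnc-2 (CELE_R09B5.3) was close to the limit of detection in skn-1gf. It had 16, 3, 0 and 2 counts in skn-1gf replicates 1 to 4, against 90, 1, 21 and 34 counts in wild-type replicates 1 to 4. Wild-type replicate 1 held most of the wild-type counts, and wild-type replicate 2 was as low as the skn-1gf libraries. Its log2 fold change was −2.26 (SE 1.32, interval −5.14 to 0.61), and it was −1.31 without wild-type replicate 1.

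Across all genes, edgeR's quasi-likelihood test with Benjamini-Hochberg adjustment called 0% of the 12734 genes at an adjusted p of 0.05, and the adjusted p of all 8 peptide genes was 0.999989. With this adjusted p none of the differences was separated from the replicate spread. At an unadjusted p under 0.05, 2 of the 8 were lower in skn-1gf (nlp-31 and nlp-30), where 2.62% of all genes were, and 0 of the 8 were higher, where 1.44% of all genes were. In 2 of the 8 (nlp-31 and nlp-33) every skn-1gf library was below every wild-type library, where 1.15% of all genes showed this. Both shares are above the background, but the 8 genes share their libraries and their tissue and were taken up with earlier results known, so the counts are a description.

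The unadjusted count depended on single libraries. It was 0 when wild-type replicate 1 was dropped (2.47% of all genes lower at this threshold) and 1 when skn-1gf replicate 2 was dropped (3.52%). It was 4 on dropping wild-type replicate 2 (1.14%), skn-1gf replicate 1 (2.27%) or the pair of libraries numbered 2 (4.23%). The count also moved with scaling, filter and tool, to 5 with total-count scaling (2.90%), limma-voom (2.03%) or no low-count filter (3.49%). It was 3 with DESeq2 (4.46%) or protein-coding genes only (2.42%). With upper-quartile scaling (2.61%) or the epidermis marker mean as covariate (0.589%) it was 1. Dropping wild-type replicate 2 gave 5 non-overlapping genes (nlp-28, nlp-29, nlp-31, nlp-33 and cnc-2), where 2.01% of all genes showed this, and dropping the pair numbered 2 gave the same 5 genes, where 10.5% did. Dropping skn-1gf replicate 1 gave 4 (nlp-27, nlp-30, nlp-31 and nlp-33), where 2.34% did. The sign stayed negative for all 8 genes with each library left out in turn, and the median was lowest on dropping skn-1gf replicate 1 (−1.59) and closest to 0 on dropping skn-1gf replicate 2 (−1.03).

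**Figure D2:**
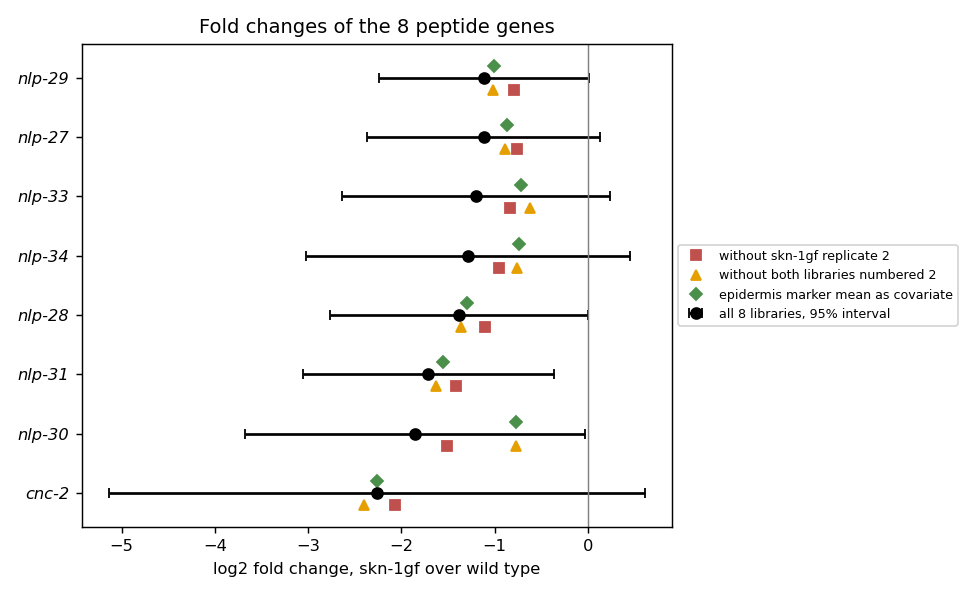
Log2 fold change, skn-1gf over wild type (x axis), of the 8 peptide genes; black points are the fit on all 8 libraries with its 95% interval, and coloured marks are 3 alternatives. All marks are below 0, and the intervals of nlp-30 and nlp-31 alone end below 0.

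Summed over the 8 genes, the peptide transcripts took 0.02001, 0.00298, 0.0156 and 0.0173% of protein-coding counts in skn-1gf replicates 1 to 4. In wild-type replicates 1 to 4 they took 0.0560, 0.0241, 0.0357 and 0.0363%. The groups did not overlap, and the closest pair was skn-1gf replicate 1 (95% Clopper-Pearson interval 0.0190 to 0.0210%) and wild-type replicate 2 (0.0229 to 0.0253%). These intervals cover counting error only. The mean log2 CPM over the 8 genes was 2.85 ± 1.07 in skn-1gf and 4.40 ± 0.50 in wild type (SD, n = 4 each), a difference of −1.56 that was −1.04 without skn-1gf replicate 2 and −1.71 without wild-type replicate 2.

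The order of the genes by level was similar in both genotypes. Per kilobase of coding sequence, nlp-27 had 234 ± 167 CPM in skn-1gf and 508 ± 176 CPM in wild type (SD, n = 4 each), the highest of the group. Second was nlp-29, at 139.8 ± 74.6 CPM per kilobase in skn-1gf and 301 ± 129 in wild type, with ranges that overlapped those of nlp-27 and a level above it in skn-1gf replicate 2 only. The middle of the order, nlp-31, nlp-28, nlp-33 and nlp-30, was at 27.8 to 49.4 CPM per kilobase in skn-1gf and 101.6 to 137 in wild type. Their SDs between libraries were 24.9 to 28.9 in skn-1gf and 39.1 to 85.6 in wild type. Their order changed between libraries, with ranks of 3 to 7 for nlp-31 and nlp-28, 3 to 5 for nlp-33 and 2 to 7 for nlp-30. Differences between these genes were not tested. Below them nlp-34 had 25.2 ± 14.5 CPM per kilobase in skn-1gf and 61.6 ± 27.5 in wild type, which overlapped nlp-30. The lowest was cnc-2, at 3.53 ± 3.77 CPM per kilobase in skn-1gf and 17.9 ± 18.6 in wild type, and it ranked last in all 8 libraries.

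Each gene also took a share of the summed peptide CPM of its library. The share of nlp-27 was 27.7 to 52.0% in skn-1gf and 32.9 to 42.2% in wild type, and that of nlp-29 was 17.1 to 31.8% in skn-1gf and 14.1 to 33.02% in wild type. The ranges overlapped for all 8 genes. The share of nlp-30 was 2.05 to 7.31% in skn-1gf and 2.62 to 20.0% in wild type, where the upper end was replicate 2.

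Within wild type the genes split into 2 sets by library. Replicate 2 was the highest wild-type library for nlp-30, nlp-33 and nlp-34 and the lowest for nlp-27, nlp-28, nlp-29, nlp-31 and cnc-2, and replicate 3 was the lowest for the first set. Within skn-1gf, replicate 2 was the lowest library for 7 of the 8 genes. Position did not follow these sets, as nlp-30 and nlp-34 are neighbours of nlp-31 and nlp-33 lies apart from them.

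Pairs of genes were compared by the root mean square difference of their log2 CPM over the 8 libraries, each centred on its own mean. The most alike were nlp-29 and nlp-31 (0.468 log2 units) and nlp-33 and nlp-34 (0.495). The direct neighbours nlp-30 and nlp-31 differed by 1.30 and nlp-29 and nlp-30 by 1.27. Least alike were nlp-30 and cnc-2 (1.89), where cnc-2 rests on few counts. Against the mean profile of the 8, to which each contributes, nlp-27 was nearest (0.359) and cnc-2 farthest (1.23), where the median over all genes tested was 1.31.

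**Figure D3:**
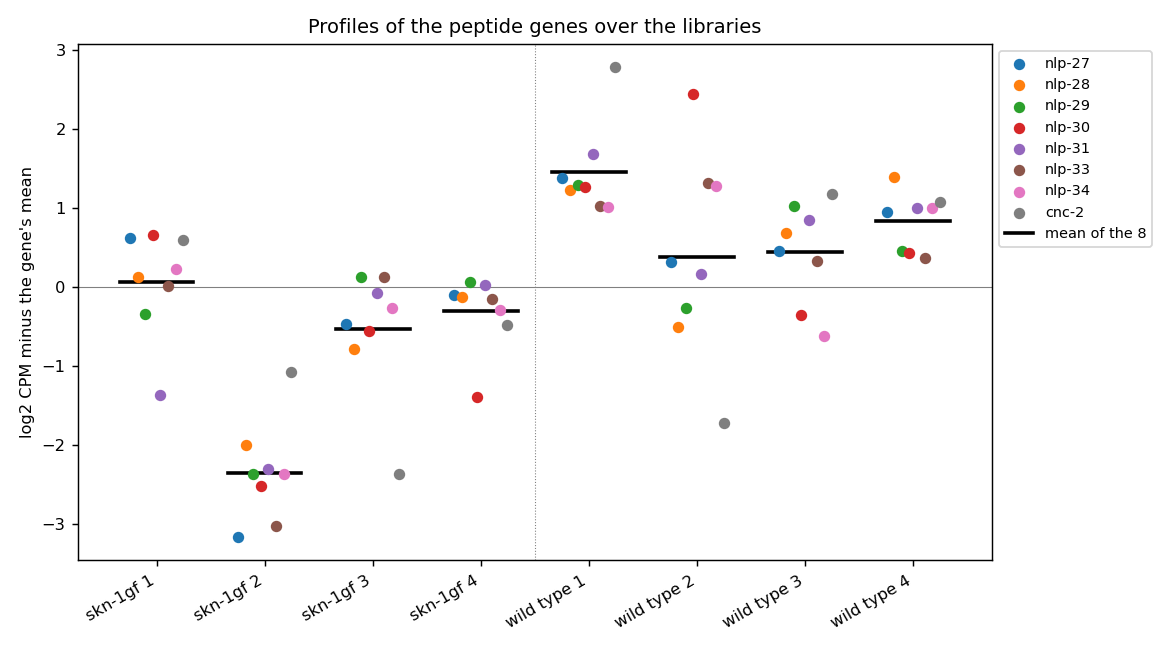
Log2 CPM of each peptide gene minus its own mean over the 8 libraries (y axis) in each library (x axis); points are genes and black bars the mean of the 8. In skn-1gf replicate 2 all 8 genes are below 0, and in wild-type replicate 2 nlp-30, nlp-33 and nlp-34 are above 1 while nlp-28, nlp-29 and cnc-2 are below 0.

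The 5 genes outside the group whose profile came closest to that mean, with root mean square differences of 0.234 to 0.364, were F46C3.6, T22B7.3, srdh-1, clec-1 (a C-type lectin gene) and F26G1.2. The closest, F46C3.6, had 4.50, 1.08, 4.38 and 4.49 CPM in skn-1gf replicates 1 to 4, against 13.9, 8.38, 6.67 and 7.85 CPM in wild-type replicates 1 to 4. Like the peptide mean it was lowest in skn-1gf replicate 2 and highest in wild-type replicate 1. Mean levels of clec-1 were 56.5 ± 37.6 CPM in skn-1gf and 95.8 ± 27.6 CPM in wild type (SD, n = 4 each). All 5 had a negative log2 fold change, from −1.48 to −0.77, and none passed the test (adjusted p = 0.999989 in edgeR for each). The 5 were chosen for nearness to the peptide mean, which was lower in skn-1gf. Their negative sign and their likeness to that mean follow from the choice and are no separate result.

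Epidermis markers and peptide genes shared their lowest library but not the order of the others. The mean log2 CPM of the 19 markers was 3.50, 2.11, 3.70 and 4.02 in skn-1gf replicates 1 to 4, against 3.93, 4.61, 3.34 and 3.58 in wild-type replicates 1 to 4. Wild-type replicate 2 was thus the highest for the markers. For the peptide mean it was the lowest of its genotype by a narrow margin (4.00 against 4.07 log2 CPM in wild-type replicate 3). Skn-1gf replicate 2 was the lowest of all libraries for both. The group means of the markers were 3.33 ± 0.84 in skn-1gf and 3.87 ± 0.55 in wild type (SD, n = 4 each), with overlapping groups. Their difference of −0.54 was −0.13 without skn-1gf replicate 2 and −0.29 without wild-type replicate 2, and for the markers other than dpy-5, dpy-7, bli-1 and col-19 it was −0.31, or 0.08 without skn-1gf replicate 2. For the peptide mean on the same log2 CPM values the difference was −1.03 without skn-1gf replicate 2, −1.69 without wild-type replicate 2 and −1.17 without both.

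Among these markers, 4 had the smallest p. The cuticle gene dpy-5 was at 12.6 ± 15.3 CPM in skn-1gf and 71.6 ± 133 CPM in wild type, where replicate 2 alone had 271 CPM. The adult collagen gene col-19 was at 389.6 ± 358 CPM in skn-1gf and 673 ± 287 CPM in wild type (SD, n = 4 each). The GATA factor gene elt-1 and the fibrillin-like gene fbn-1 were lower by a log2 fold change of −0.63 (SE 0.56) for elt-1 and −0.80 (SE 0.81) for fbn-1. None of the 4 passed the test. The epidermal factor gene lin-26 was at 104 ± 23.7 CPM in skn-1gf and 116 ± 7.13 CPM in wild type, and wrt-2, a hedgehog-related epidermal gene, was under the filter.

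Set against the marker mean of the same library, the peptide mean was 0.20, −0.83, −0.61 and −0.70 log2 units in skn-1gf replicates 1 to 4, against 1.15, −0.61, 0.73 and 0.88 in wild-type replicates 1 to 4. All wild-type libraries but replicate 2 were above all skn-1gf libraries. The mean was −0.48 ± 0.46 in skn-1gf and 0.54 ± 0.78 in wild type (SD, n = 4 each), a difference of −1.02. On this scale nlp-33 alone had no overlap, with −1.29 to 0.36 log2 units in skn-1gf and 0.55 to 0.94 in wild type. The share of all genes without overlap on this scale was not computed, so this is a description only. With the marker mean as a covariate in the edgeR fit, the log2 fold changes of the 8 genes ran from −2.26 to −0.71 with a median of −0.94, and none passed (adjusted p = 0.997 for each).

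**Figure D4:**
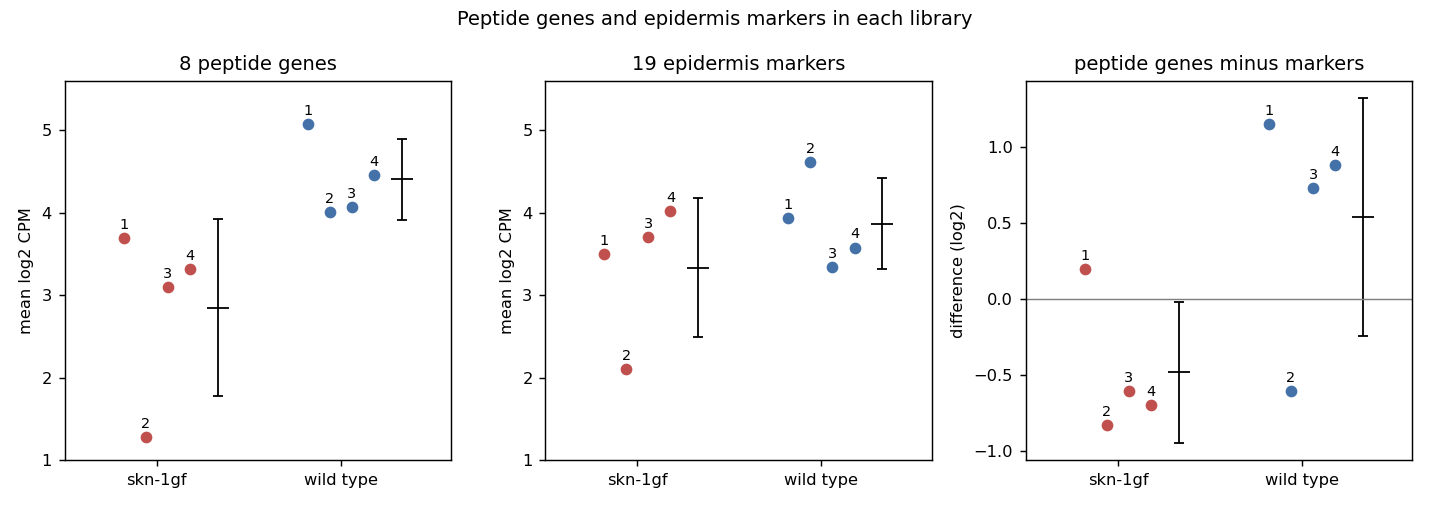
Mean log2 CPM of the 8 peptide genes (left) and of 19 epidermis markers (centre) and their difference in log2 units (right) in skn-1gf and wild-type libraries; points are libraries with replicate numbers, and bars are the mean and 1 SD (n = 4 each). The peptide means do not overlap between the genotypes, the marker means do, and in the difference wild-type replicate 2 lies among the skn-1gf libraries.

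Further relatives of the peptide genes were mostly near or under the filter. Of 14 other cnc and glycine- and tyrosine-rich nlp genes, 6 passed it, 5 with a negative and 1 with a positive log2 fold change, 0 were called, and the median was −0.51. The gene nlp-25 had 1.89, 0.270, 0.584 and 1.497 CPM in skn-1gf replicates 1 to 4, against 5.00, 10.3, 1.99 and 3.32 CPM in wild-type replicates 1 to 4, with no overlap (log2 fold change −2.26, SE 1.04). For cnc-4 the log2 fold change was −1.46 (SE 0.73), while nlp-24 (−0.47, SE 0.56) and cnc-3 (−0.56, SE 1.07), the neighbour of cnc-2, were nearer to 0. The 8 relatives under the filter had at most 39 counts in any library, and cnc-9 had 0 in all.

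Genes of the signalling pathway lay on both sides of 0. All 21 passed the filter, 15 with a positive and 6 with a negative log2 fold change. Of all 12734 genes tested, 6836 had a positive one. In edgeR 0 of the 21 were called and 0 had an unadjusted p under 0.05. The groups overlapped for every one, and the median was 0.21. The smallest p belonged to plc-3, a phospholipase C gene, with a log2 fold change of 0.93 (SE 0.51). Next were vhp-1, a MAP kinase phosphatase gene (0.67, SE 0.46), rack-1, a scaffold protein gene (0.54, SE 0.39), and nipi-3, a Tribbles-like kinase gene needed for the response to infection (0.41, SE 0.43). The receptor gene dcar-1 (0.08, SE 0.68) and the p38 kinase gene pmk-1 (0.41, SE 0.57) had intervals that reached past 0 on both sides, as did sta-2 (−0.34, SE 0.66) and snf-12 (−0.71, SE 1.48). On the cnc-2 side dbl-1 had a log2 fold change of 0.46 (SE 0.62), its receptor genes sma-6 and daf-4 had −0.41 (SE 0.93) and −0.09 (SE 0.32), and the SMAD gene sma-3 had 0.97 (SE 1.07). Many of these genes also act outside the epidermis, so their levels cannot be placed there.

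Furrow collagens, whose loss is known to switch on nlp-29, were low. Of 6 such genes 3 passed the filter, 2 with a negative and 1 with a positive log2 fold change, and 0 were called. Their values were −0.76 (SE 1.49) for dpy-3, −0.43 (SE 1.43) for dpy-7 and 0.36 (SE 1.23) for dpy-2. Their summed level ran from 2.30 to 31.2 CPM in skn-1gf and from 2.98 to 42.2 CPM in wild type, and the intervals exclude neither a large rise nor a large drop.

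Of 8 genes tied to osmotic stress, 5 passed the filter, 3 with a positive and 2 with a negative log2 fold change, 0 were called, and the median was 0.09. The gene lea-1, which encodes a protein of the late embryogenesis abundant type known from desiccation tolerance, had 544, 346, 372 and 459 CPM in skn-1gf replicates 1 to 4. Its levels in wild-type replicates 1 to 4 were 729, 1265, 809.9 and 783 CPM, all above skn-1gf (log2 fold change −1.06, SE 0.30, adjusted p = 0.999989 in edgeR). The secreted Notch co-ligand gene osm-11 went the other way (1.13, SE 0.61), and ptr-23 (−0.81, SE 0.68) and gpdh-2 (0.21, SE 0.26) overlapped between the genotypes. The glycerol enzyme gene gpdh-1, a standard marker of osmotic stress, was under the filter.

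Markers of the labelled cell type were scarce. Of 8 ASI markers 4 passed the filter, all with a positive log2 fold change and a median of 2.27, and 0 were called. At an unadjusted p under 0.05, 2 of them were higher in skn-1gf, where 1.44% of all genes were. These were the insulin-like peptide genes daf-28 (log2 fold change 2.40, SE 0.77) and ins-6 (2.94, SE 1.25). The log2 fold change was 2.15 (SE 1.01) for daf-7 and 0.22 (SE 1.26) for gpa-4. The list mean was 3.00 ± 1.28 log2 CPM in skn-1gf and 1.31 ± 1.04 in wild type (SD, n = 4 each), a difference of 1.69 that was 2.25 without skn-1gf replicate 2 and 1.25 without wild-type replicate 2. The reporter gene daf-7 was at 20.3 ± 17.4 CPM in skn-1gf and 4.56 ± 3.76 CPM in wild type (SD, n = 4 each). The summed ASI markers ran from 10.8 to 169 CPM in skn-1gf and from 11.4 to 25.1 CPM in wild type. The marker str-3 had 0 counts in 7 of the 8 libraries.

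For the marker lists of the remaining tissues the groups overlapped in each. The list means in skn-1gf minus wild type were 0.39 log2 units for 12 pan-neuronal genes, 0.0065 for 11 intestine genes, 0.31 for 10 body wall muscle genes, 0.62 for 9 pharynx genes and 0.01 for 10 germline genes. Without skn-1gf replicate 2 they were 0.96 for the pan-neuronal, 0.77 for the intestine, 0.76 for the muscle, 1.25 for the pharynx and −0.13 for the germline list. Without wild-type replicate 2 they were 0.05, 0.30, 0.41, 0.76 and 0.10 for these lists in the same order. In skn-1gf replicate 2, where 7 of the 8 peptide genes were at their lowest, the intestine mean was 4.34 and the pharynx mean 2.68 log2 CPM, against 7.03 to 7.67 and 3.75 to 6.26 in the other skn-1gf libraries. The germline mean of that library was 8.48, against 7.58 to 8.12 in the others. The part of this shift between tissues in the peptide values was not tested.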

How the data were processed

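Whole-number read counts per gene, 1 table per library, were deposited by the authors and used as deposited. Per the submitters' processing notes, STAR 2.7.6a, HTSeq 2.0.2, DESeq2 and R 3.5.2 were used with the build ce10. Annotation release, strand setting and duplicate handling: not given in the sources used here. Of 46928 locus tags, 46919 were found in the RefSeq genes of WBcel235, which gave names and chromosomes, and an Ensembl annotation of WBcel235 gave gene order, overlaps and lengths. No coordinates are given because the build names differ. Coding length came from this annotation in place of the planned protein length, and no sequences or promoter motifs were analysed here. Summary lines stayed out of totals. Of the uniquely aligned reads, 2.76 to 14.4% hit no feature and 1.48 to 2.62% were ambiguous, and 12.3 to 30.3% of all reads aligned to several places.

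Genes were tested with edgeR 4.0.16 (R 4.3.3) by glmQLFit and glmQLFTest, two-sided, on genotype alone, with filterByExpr (minimum count 10, minimum total 15), TMM scaling and Benjamini-Hochberg adjustment over 12734 genes at 0.05. Log2 CPM used a prior count of 2, and SEs and intervals came from the same fit. With a biological coefficient of variation of 0.707, the typical (median) 95% interval reached 1.44 log2 units above and below its fold change. The fit was tested on simulated data. Alternatives were DESeq2 1.42.0, limma-voom (limma 3.58.1), other scalings and filters, protein-coding genes only, a replicate block, an epidermis covariate and libraries left out; an order by exon length was added after seeing the data.

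The 8 genes and all lists were chosen with earlier results of these data known. Named genes were the 8, up to 4 genes per other list with the smallest p, skn-1, gst-4, drh-1 and daf-7 as checks, and the 5 nearest profiles. Further genes (lin-26, wrt-2, str-3, cnc-9, gpdh-1, and the members of the signalling list beyond its first 4) were named after their values were seen. The level of drh-1, a dicer-related helicase gene, was 68.9 ± 23.6 CPM in skn-1gf and 61.9 ± 6.17 CPM in wild type.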

Additional observations from a re-analysis of the deposited data

How the results depend on the processing

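None of the 8 peptide genes was called under any alternative, with 0 calls without each library in turn, and their adjusted p ran from 0.231 (nlp-27 without a low-count filter, in edgeR) to 0.999938. DESeq2 gave no adjusted p for cnc-2, so this gene was not assessed at the threshold there. The sign stayed negative for each gene under all 19 alternatives. Over all genes edgeR called 159 without a low-count filter and DESeq2 called 6, none of them a peptide gene, where the analysis itself called 0 (518 at an unadjusted p under 0.05); limma-voom called 0, and 0 were called without each library in turn. The cause was not tested. The difference of the peptide mean was between −1.81 and −1.04, the ends given by dropping skn-1gf replicate 1 and skn-1gf replicate 2. Of the 8 places in the order by level, 6 were kept with CPM not divided by length, 6 in skn-1gf libraries alone and 4 with exon length, the last added after seeing the data; nlp-27, nlp-29 and cnc-2 kept theirs in each.

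Same-numbered libraries deviated together by correlations of −0.014, 0.064, 0.513 and 0.059 for numbers 1 to 4. Among skn-1gf libraries replicate 3 alone correlated best with its own number. With 4 libraries of each genotype, some of them outlying, these correlations cannot decide whether the numbers pair the libraries, and the labels do not say. With the replicate block 0 peptide genes and 0 of all genes were called, and the smallest adjusted p of the 8 was 0.901 in edgeR. At an unadjusted p under 0.05, 4 of the 8 were lower in skn-1gf in this fit, where 3.76% of all genes were. The log2 fold changes ran from −1.998 (cnc-2) to −1.26 (nlp-29). Marker list means without the libraries numbered 2 were added after seeing the data. Counts of 0 to 16 in skn-1gf limit cnc-2 most.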
